A study of Mus musculus with 4 samples.

Results

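The genes described here encode the proteasome, the protease complex that degrades ubiquitin-tagged proteins, in mouse embryonic stem (ES) cells sorted by a Zscan4 reporter. They were taken by symbol, as every gene of the RefSeq table named Psma, Psmb, Psmc, Psmd, Psme, Psmf or Psmg followed by a number. The rule found 48 of the table's 19797 gene symbols and used no measured value. Of these, 45 reached the level required for testing, a mean of at least 1 FPKM (fragments scaled by transcript length and library size) over the 4 libraries. The other 3, the core subunit Psmb5 and the tissue-specific subunits Psmb8 and Psmb11, are described by their levels. None of the 45 differed between the sorted fractions at an adjusted p of 0.05 in edgeR's quasi-likelihood test, whereas 559 of all 12050 genes tested did (4.64%).

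The proteasome is a barrel of stacked rings whose inner beta subunits cut proteins, closed at each end by alpha rings. A cap sits on the barrel: its ATPases unfold the substrate and thread it in, and its other subunits bind ubiquitin and remove it. Other proteins assemble the complex, open the barrel without ubiquitin, or replace single core subunits in immune cells, thymus and testis. Pluripotent stem cells are known for high proteasome activity.

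All libraries came from MC1-ZE7 ES cells of the MC1 line (129S6/SvEvTac), in which the green fluorescent protein Emerald reports Zscan4, a gene switched on from time to time in a small fraction of ES cells. The cells grew without feeders on gelatin in serum and leukemia inhibitory factor and received no other treatment. They were sorted by Emerald fluorescence into an Em+ group, the high fraction, and an Em- group, with 2 libraries each, so both groups share the line, the reporter and the medium. Total RNA was depleted of ribosomal RNA and sequenced with a stranded kit. A single reporter line stands for the Zscan4 state, and the labels do not say whether replicates were separate cultures or sorts. Spread between libraries, which may be only technical, is therefore all that the p-values measure.

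The groups follow the sample titles, because a second label field names the opposite fraction for all 4 libraries. The 9 markers of the Zscan4 state went with the titles: their summed CPM (read counts scaled to library size) were 517 to 536 in Em+ and 2.75 to 4.53 in Em-. The 6 ES cell markers summed to 4340 to 4870 CPM in Em+ and 4820 to 4880 in Em-, with members that moved apart. Nanog was called higher in Em+ (log2 fold change 0.48, edgeR adjusted p = 0.0192). Pou5f1, Sox2 and Esrrb were lower in both Em+ libraries, uncalled (-0.27, -0.29 and -0.19), and Zfp42 and Tdgf1 overlapped. Between 16468218 and 18953217 reads per library fell on RefSeq genes. Em+ replicate 2 stood apart. Its reads on RefSeq genes were 43.45% of its library total as computed from counts and FPKM, against 49.01% to 51.15% in the others. Of the reads on RefSeq genes, 7.95% lay on the ribosomal RNA precursor Rn45s, against 3.93% to 4.33% in the others. The part of these differences in the results was not tested.

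The lowest levels among the constitutive subunits belonged to genes that share most of their sequence with copies elsewhere in the genome. Sequences are shown for 3 genes whose levels this touches. Each is the start of the longest coding stretch inside an exon, read from GENCODE M21 transcripts on GRCm38 (mm10), and all letters are in lower case because no base differs between gene and copy. For Psma3 (chr12:70984493-70984552, plus strand, exon 3), Psma5 (chr3:108265066-108265125, plus strand, exon 3) and Psmb5 (chr14:54616762-54616821, minus strand, exon 2) the 60 bases were identical in the closest copy. Those copies are the processed pseudogenes Gm13835 (chr6:31142459-31142518, minus strand), Gm8394 (chr10:85313665-85313724, plus strand) and Gm3375 (chr7:3181291-3181350, plus strand).
Psma3 and Gm13835: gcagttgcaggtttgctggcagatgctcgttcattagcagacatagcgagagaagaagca
Psma5 and Gm8394: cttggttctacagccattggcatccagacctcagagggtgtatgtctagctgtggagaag
Psmb5 and Gm3375: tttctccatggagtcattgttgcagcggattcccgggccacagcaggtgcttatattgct

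Subunits of a complex assembled in fixed proportions spanned a wide range of deposited levels. Among the 31 constitutive core and cap subunits, the mean FPKM ran from 0.264 for Psmb5 to 90.9 for Psma7. Shared sequence was measured as the share of a transcript's 50-base words that also occur in another GENCODE gene. The transcript was the GENCODE one of that symbol nearest in length to the RefSeq model. For Psma3 it had 859 bases against 1420 in the RefSeq model, whose share was not measured. The 20 subunits with at most 5% of shared words had mean levels of 23.2 to 90.9 FPKM, with a median of 49.6. For the 7 subunits above that and up to 50% (Psmc1, Psmd1, Psmd2, Psmd11, Psma2, Psma4 and Psmb7) the range was 9.7 to 50.8, with a median of 25.2. The 4 with over 50%, Psma3 (78.5%), Psma5 (55.4%), Psmb3 (55.8%) and Psmb5 (57.1%), had the 4 lowest levels, 0.264 to 7.68 FPKM. These bounds were chosen after the values were seen, and the order is a description.

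**Figure D1:**
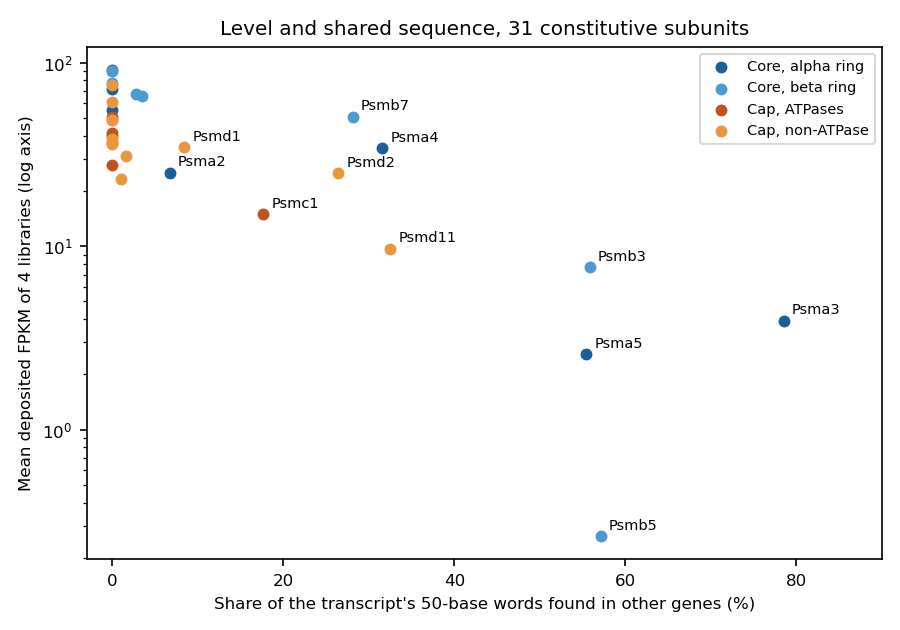
Mean deposited FPKM of the 4 libraries (log axis) against the share of each transcript's 50-base words found in other genes, for the 31 constitutive core and cap subunits. The 4 subunits above 50% lie at 0.264 to 7.68 FPKM and the 20 at 5% or less lie at 23.2 to 90.9 FPKM.

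Reads assigned to the copies could be seen in the Ensembl table, which lists many pseudogenes. Near copies, found for 11 genes, were defined as at least 90% identity over at least 50% of the transcript. In Em+ replicate 1, Psma3 held 170 reads and its listed copies held 4887, and in Em- replicate 2 the numbers were 278 and 5684. The copies held 94.5% to 96.6% of the Psma3 reads over the 4 libraries, with almost all of them at Gm13835. The corresponding shares were 91.0% to 94.0% for Psma5, 89.1% to 94.1% for Psme2 and 63.4% to 65.8% for Psmb3. For Psmd2, a large scaffold subunit of the cap, 74.9% to 77.2% of the reads lay at its copy Gm5422. Neither Psmb5 copy is listed in that table, so the 7, 6, 8 and 13 reads of Psmb5 had no counterpart.

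With the copies' FPKM added in the Ensembl table, Psma3, Psma5 and Psmb3 stood above their own RefSeq levels, while Psmb5, with no listed copy, kept its low level. These sums are not on the scale of the RefSeq levels given above for the other subunits. Psmb6, with no listed copy, had 104 FPKM in Em+ replicate 1 in the Ensembl table and 67.2 in the RefSeq table. The summed level of Psma3 and its copies was 209 FPKM in Em+ replicate 1, 156 in Em+ replicate 2, and 229 and 241 in the Em- replicates. Psma5 with its copies reached 66.1 and 47.1 FPKM in Em+ and 65.4 and 70.8 in Em-. For Psmb3 the sums were 35.7 and 27.1 in Em+ and 35.6 and 36.5 in Em-. How the counting program treated reads that match several places is not given in the sources used here. Levels of these genes are therefore uncertain, and how much transcript each locus made was not tested.

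**Figure D2:**
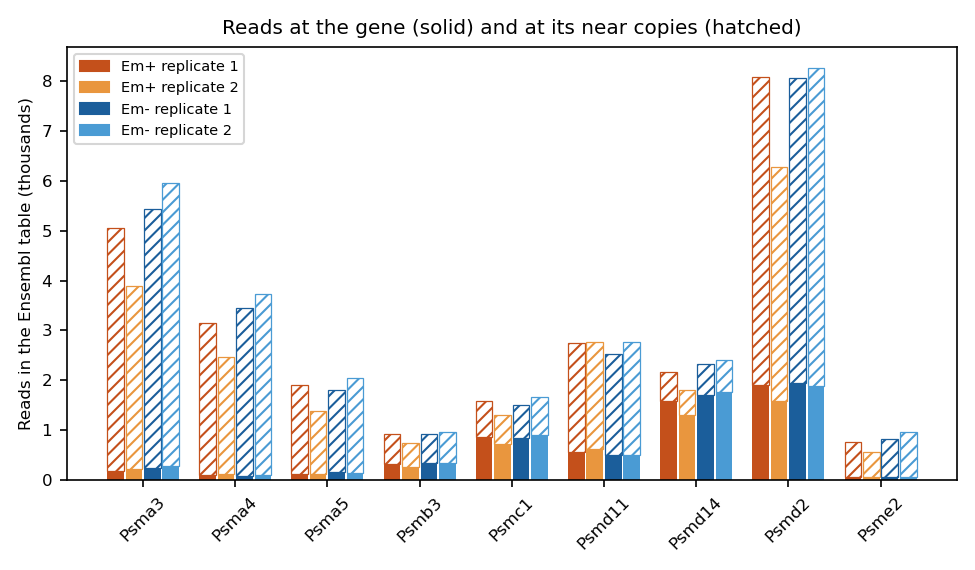
Reads at 9 proteasome genes (solid) and at their near copies (hatched) in the Ensembl table (axis in units of 1000 reads), with a bar for each of the 4 libraries. At Psma3, Psma4, Psma5 and Psme2 nearly the whole bar is hatched, with copies at 89.1% to 97.8% of the Ensembl reads. At Psmd14 the copy holds 26.5% to 28.2%. Psma4 itself has fewer reads in the Ensembl table than in the RefSeq table (88 against 1425 in Em+ replicate 1), which raises its share at the copy.

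The choice of transcript models mattered for Psma4 as well. The RefSeq table gave Psma4 5517 reads over the 4 libraries and the Ensembl table gave it 368. In the Ensembl table its pseudogene Gm6542 held 3062, 2344, 3369 and 3633 reads in Em+ replicates 1 and 2 and Em- replicates 1 and 2. The Psma4 log2 fold change (Em+ over Em-) was -0.09 in the RefSeq table and 0.42 in the Ensembl table, uncalled in both. Across the 48 genes, the Ensembl count was under 0.5 times the RefSeq count for 8 and over 2 times for 1. Among those 8 were Psmc5 (102 against 6833 reads), Psmc2 (1912 against 7314), Psmd12 (3565 against 12366) and Psmd3 (3561 against 11423). No near copy was found for these genes. A share at copies in the Ensembl table therefore depends on its transcript models as well, and the part of each was not tested. The known-gene count was under 0.5 times or over 2 times the RefSeq count for 0 of the 48.

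The comparison between fractions asks whether proteasome transcripts differ when the Zscan4 reporter is on. For the 45 genes tested, log2 fold changes (Em+ over Em-) ran from -0.37 for Psmb10 to 0.27 for Psmb9, with a median of -0.09. The median over all 12050 genes tested was 0.00. In 39 of the 45 (86.7%) the fold change was below 0, against 49.3% of all genes. No proteasome gene was called higher, beside 460 of all genes (3.82%), and none lower, beside 99 (0.822%). Scaling to library totals alone gave a different split of all calls, 334 higher and 293 lower, and shifted the median of all genes to -0.16 and that of the proteasome genes to -0.24. Relative to all genes the proteasome median was -0.09 under either scaling. A change of scaling moves all genes by nearly the same amount, so this value could not differ between them.

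At an unadjusted p under 0.05, 1 proteasome gene was higher in Em+, Psmd11, beside 14.5% of all genes, and 7 were lower, Psma7, Psmb6, Psmb7, Psmb10, Psmd1, Psmg3 and Psmg4, beside 10.7%. DESeq2, which called 5.61% of all genes, and limma on log2(FPKM + 1), which called 2.43%, called 0 of the 45. The 95% interval lay inside 1.5-fold in either direction for 42 of the 45 genes, all but Psma5, Psmb9 and Psmb10, and inside 2-fold for 45. The CPM of both Em+ libraries lay below both Em- libraries for 19 genes (42.2%) and above them for 3 (6.67%), while 29.7% of all genes lay in each of those orders and 59.4% in either.

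**Figure D3:**
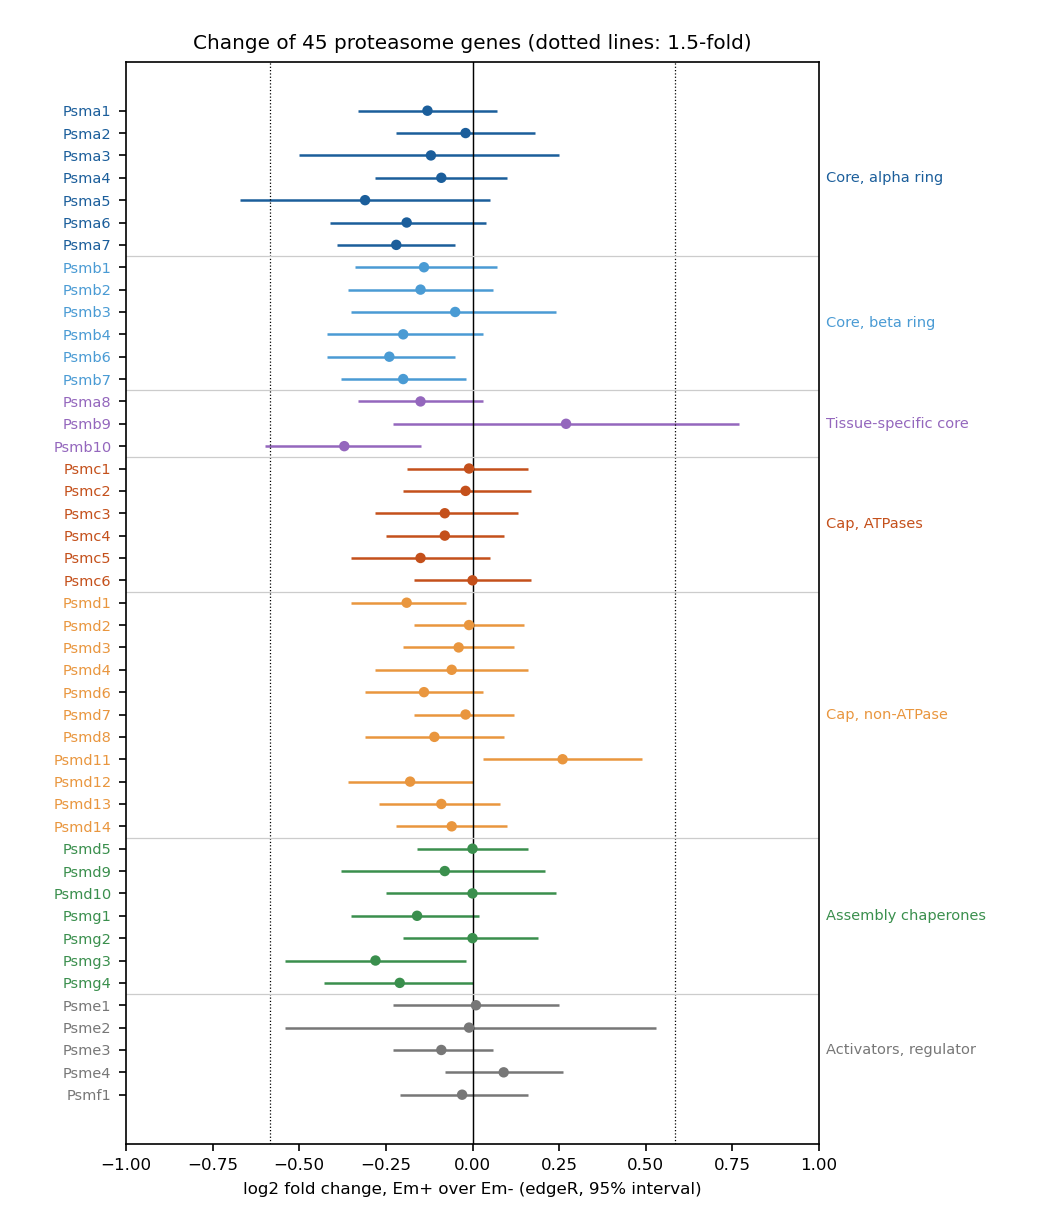
Log2 fold change of the 45 tested proteasome genes, Em+ over Em-, with the 95% interval from edgeR, coloured by class, with dotted lines at 1.5-fold. The points run from -0.37 to 0.27, with 39 below 0, and the intervals of 42 genes stay between the dotted lines.

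The 2 Em+ libraries did not hold these genes at like levels. Against the mean of the Em- libraries, the median log2 difference of the 45 genes was -0.02 in Em+ replicate 1 and -0.17 in Em+ replicate 2. Over all genes tested it was 0.00 in both. Em+ replicate 2 was the lowest of the 4 libraries for 37 proteasome genes (82.2%), against 36.4% of all genes. The 2 Em- libraries differed by a median of 0.00, with replicate 2 below replicate 1 for 22 of the 45. Across genes, longer transcripts were relatively higher in Em+ replicate 2 than in Em+ replicate 1, with a Spearman rho of 0.29 over the 45 proteasome genes and 0.28 over 12023 genes.

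Calls depended on which Em+ library was kept. Without Em+ replicate 1, 20 of the 45 genes were called lower (44.4%, against 19.5% of all genes) and 2 higher (4.44%, against 21.9%), with a median of -0.17. The lower ones included Psmb4 at -0.35 (edgeR adjusted p = 1.60e-04), Psmb6 at -0.34 (2.82e-04) and Psma6 at -0.33 (3.52e-04), and the higher ones were Psmd11 and Psme4. Without Em+ replicate 2, 3 were called lower (6.67%, against 6.9% of all genes) and 0 higher (against 9.43%), with a median of -0.02. Those 3 were Psma7 at -0.14 (edgeR adjusted p = 0.0371), Psmb6 at -0.14 (0.0441) and Psmb10 at -0.29 (0.0444). Without Em- replicate 1 or Em- replicate 2, 0 of the 45 were called, against 4.07% and 4.87% of all genes. In each of these fits the lone library is assumed to vary as the others do.

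**Figure D4:**
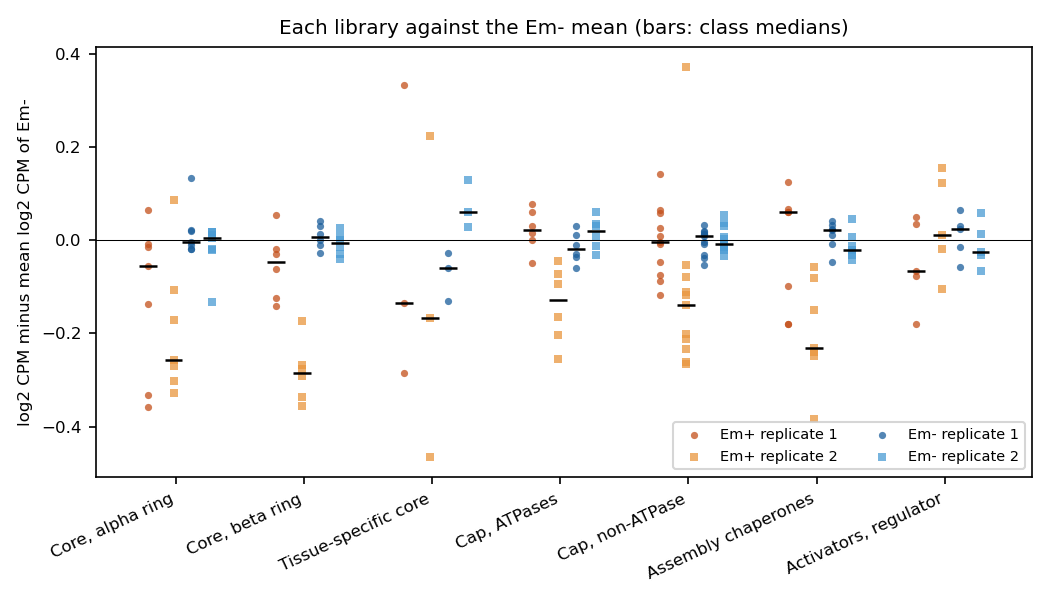
Log2 CPM of each proteasome gene in each library minus its mean in the Em- libraries, by class, with bars at class medians. The median over all 45 genes is -0.02 for Em+ replicate 1 and -0.17 for Em+ replicate 2.

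The alpha ring gates the barrel and docks the cap. All 7 alpha genes were tested, with log2 fold changes from -0.31 to -0.02 and a median of -0.13. None passed the test. Both Em+ libraries were below both Em- libraries for 4 (57.1%, against 29.7% of all genes), Psma1, Psma5, Psma6 and Psma7. Psma7, the most abundant at a mean of 90.9 FPKM, had 175 and 156 CPM in Em+ replicates 1 and 2 and 191 and 194 CPM in the Em- replicates. Its log2 fold change was -0.22 (SE 0.07, edgeR adjusted p = 0.128). Every Em- value exceeded every Em+ value, and Em+ replicate 2 was lowest.

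The alpha genes that share most of their sequence, Psma5 and Psma3, had the lowest levels of the ring. Psma5 had 2.29 and 2.04 FPKM in Em+ and 3.27 and 2.73 in Em-. Its CPM of 5.69 and 5.94 in Em+ and 7.86 and 6.53 in Em- gave -0.31 (SE 0.15, edgeR adjusted p = 0.254), and with the copies' reads added the estimate was -0.11 (95% interval -0.35 to 0.14). Psma3 had 3.27 and 3.79 FPKM in Em+ and 4.28 and 4.39 in Em-, with overlapping CPM, lowest in Em+ replicate 1 (9.48) and highest in Em+ replicate 2 (12.9), and a change of -0.12 (95% interval -0.50 to 0.25). With its copies added, Psma3 was at -0.22 (95% interval -0.43 to -0.01, edgeR adjusted p = 0.208). Psma2 showed the smallest difference, with 52.0 and 46.2 CPM in Em+ and 50.5 and 49.0 in Em- and a change of -0.02 (95% interval -0.22 to 0.18).

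The beta ring holds the 3 proteolytic subunits, Psmb5 (chymotrypsin-like), Psmb6 (caspase-like) and Psmb7 (trypsin-like). Of 7 beta genes 6 were tested, with changes from -0.24 to -0.05 and a median of -0.17, and none passed. The groups did not overlap, with Em+ lower, for 4 of them (66.7%, against 29.7% of all genes), Psmb1, Psmb4, Psmb6 and Psmb7. Em+ replicate 2 was the lowest library for all 6 tested beta genes, against 36.4% of all genes. Psmb6 had 67.2 and 49.8 FPKM in Em+ and 77.3 and 76.2 in Em-. In CPM it had 142 and 124 in Em+ and 158 and 155 in Em-, a change of -0.24 (SE 0.08, edgeR adjusted p = 0.126). Psmb7 had 100 and 89.0 CPM in Em+ and 107 and 111 in Em-, a change of -0.20 (SE 0.08, edgeR adjusted p = 0.166). In both genes the Em- libraries lay close together and Em+ replicate 2 was lowest.

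Psmb4, a structural beta subunit, was the most abundant of the ring. Its mean level was 89.7 FPKM. The change in CPM was -0.20 (95% interval -0.42 to 0.03), with most of the distance in Em+ replicate 2 (147 CPM, against 180 in Em+ replicate 1 and 188 in both Em- libraries). Psmb3 had 8.23 and 6.03 FPKM in Em+ and 8.38 and 8.09 in Em-, overlapping in CPM (12.3 and 10.5, against 12.1 and 11.6), with a change of -0.05 (95% interval -0.35 to 0.24). Psmb5, at chr14:54614120-54617995, had 0.220 and 0.182 FPKM in Em+ and 0.255 and 0.399 in Em-, from 6 to 13 reads a library. Psmb5 was below the minimum and not tested, and the part of its near copies in this low count was not tested.

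**Figure D5:**
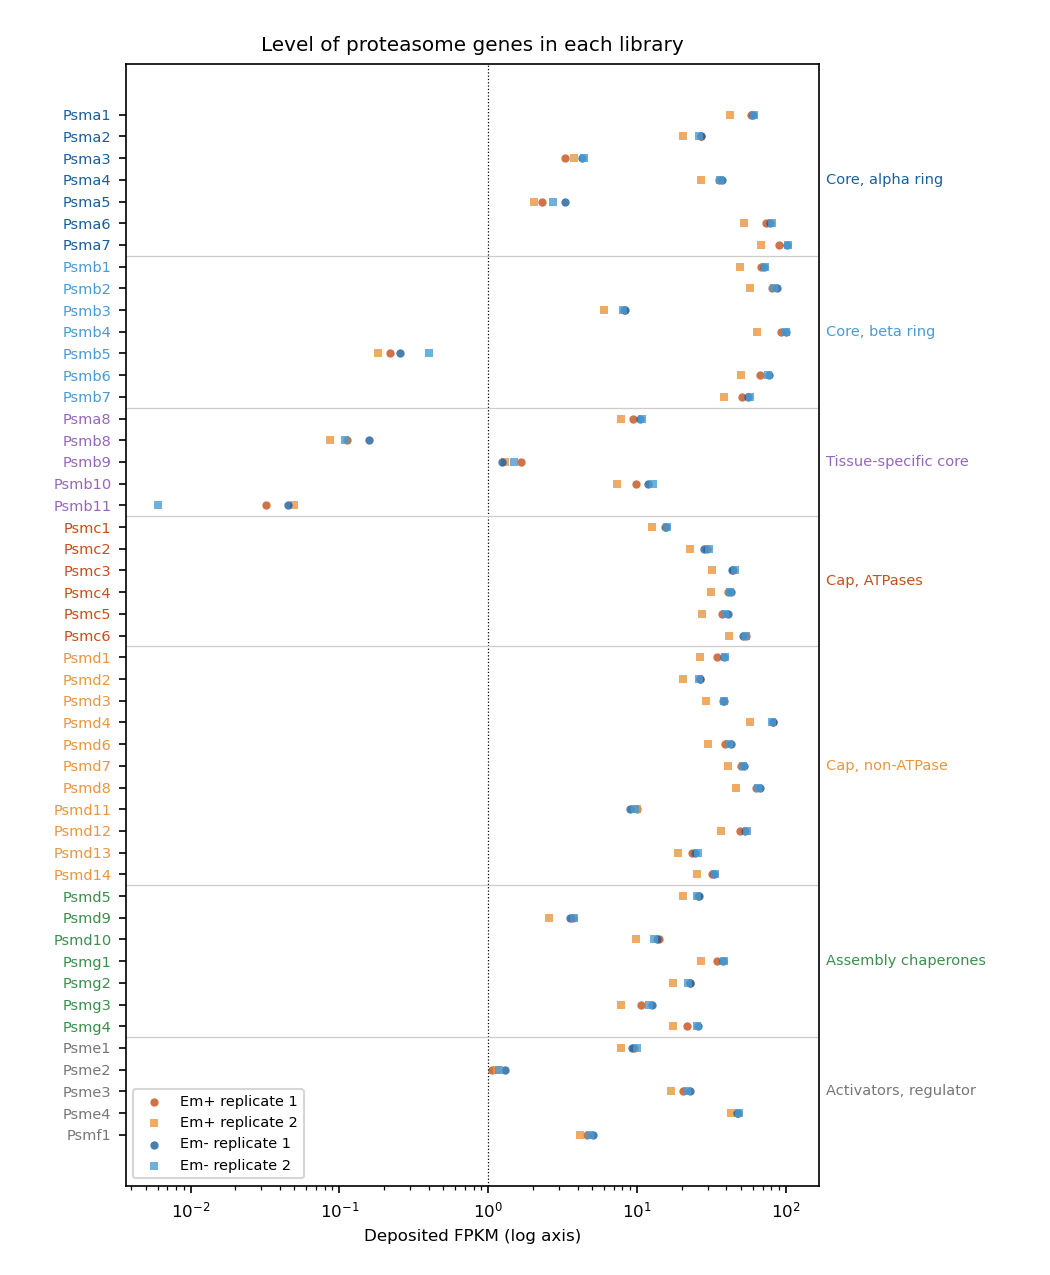
Deposited FPKM (log axis) of all 48 proteasome genes in each of the 4 libraries, by class, with a dotted line at the minimum of 1 FPKM for testing. Psmb5, Psmb8 and Psmb11 lie left of the line, with means of 0.264, 0.116 and 0.0332 FPKM.

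Tissue-specific core subunits were at low or intermediate levels, and the 3 immune subunits at different ones. Psmb10, Psmb9 and Psmb8 replace Psmb7, Psmb6 and Psmb5 in the immunoproteasome, Psmb11 replaces Psmb5 in thymic epithelium, and Psma8 replaces Psma7 in testis. Psmb10 (chr8:105935728-105938392) had 9.86 and 7.39 FPKM in Em+ and 11.9 and 12.9 in Em-, below the 50.8 FPKM mean of its constitutive counterpart Psmb7. In CPM it had 25.5 and 22.5 in Em+ and 29.8 and 32.4 in Em-. That was the lowest log2 fold change of all members, -0.37 (SE 0.10, 95% interval -0.60 to -0.15, unadjusted p = 0.00568, edgeR adjusted p = 0.074).

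Psmb10 was also the member nearest to the threshold. It was the 1 proteasome gene called under library totals (-0.53, edgeR adjusted p = 0.028), without the filter on low values (-0.43, 0.0468) and with the replicate number as a block (-0.37, 0.024). Those fits called 2.43%, 1.47% and 3.83% of all genes lower. Both Em+ values lay below both Em- values. Leaving out either Em+ library gave a call, at -0.47 without Em+ replicate 1 (edgeR adjusted p = 0.00254) and -0.29 without Em+ replicate 2 (0.0444). Without Em- replicate 1 or 2 there was none.

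Psmb9 (chr17:34182099-34187330) had 1.66 and 1.31 FPKM in Em+ and 1.24 and 1.49 in Em-. In CPM both Em+ libraries were higher, at 2.73 and 2.53 against 1.98 and 2.37, whereas the FPKM overlapped. The change was 0.27 (95% interval -0.23 to 0.77, edgeR adjusted p = 0.454). Psmb8 (chr17:34198195-34201454) had 0.112 and 0.0862 FPKM in Em+ and 0.159 and 0.109 in Em-. Psmb11 (chr14:54625310-54629556) had 0.0321 and 0.0496 in Em+ and 0.045 and 0.006 in Em-. Both are near the limit of detection, with 21 reads each over the 4 libraries. Immune cell markers summed to 57.4 to 66.8 CPM in Em+ and 61.3 to 68.5 in Em-, with 1 of the 6 not detected. Most of the sum was Laptm5, which overlapped between groups, as did Coro1a. Cd74, Cd52 and Cd3e were higher in both Em+ libraries, and no immune marker was called. The part of these markers in the immune subunits' levels was not tested. In such bulk libraries fewer cells that hold a transcript and less of it per cell cannot be told apart.

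Psma8 (chr18:14706151-14762299), the testis form, was well above detection. It had 9.41 and 7.85 FPKM in Em+ and 10.5 and 10.9 in Em-, against a mean of 90.9 for Psma7. In CPM it had 32.5 and 31.8 in Em+ and 35.0 and 36.4 in Em-, a change of -0.15 (95% interval -0.33 to 0.03, edgeR adjusted p = 0.264). The 2 fractions did not overlap, with both Em+ libraries lower.

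The 6 ATPases, Psmc1 to Psmc6, form the ring that unfolds the substrate. Their changes ran from -0.15 to 0.00, with a median of -0.05 and no call. Psmc6, the most abundant, had 53.9 and 41.5 FPKM in Em+ and 51.6 and 54.2 in Em-. Its change was 0.00 (95% interval -0.17 to 0.17), from 172 and 155 CPM in Em+ and 159 and 167 in Em-. Psmc1, the lowest, had 47.2 and 45.3 CPM in Em+ and 46.4 and 47.0 in Em-, a change of -0.01 (SE 0.07). Only Psmc5 had both Em+ libraries below both Em- libraries (16.7% of the class, against 29.7% of all genes). It had 97.4 and 84.5 CPM in Em+ and 103 and 98.6 in Em-, a change of -0.15 (95% interval -0.35 to 0.05).

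The 11 non-ATPase cap subunits include the ubiquitin receptor Psmd4, the deubiquitinase Psmd14 and scaffold proteins. Their changes ran from -0.19 to 0.26 with a median of -0.06, and none passed. Psmd1, a large scaffold, was lowest, with 230 and 208 CPM in Em+ and 249 and 250 in Em-, a change of -0.19 (SE 0.07, edgeR adjusted p = 0.163). Psmd4, the most abundant at 82.4 and 58.0 FPKM in Em+ and 81.9 and 80.8 in Em-, overlapped between groups in CPM (224 and 186, against 216 and 212) and was at -0.06 (95% interval -0.28 to 0.16). Psmd14 was at -0.06 as well.

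Psmd11, a lid subunit linked to high proteasome activity in human ES cells, went the other way. It had 35.6 and 41.8 CPM in Em+ and 31.1 and 33.5 in Em-, with both Em+ libraries above both Em- libraries. Its change was 0.26 (SE 0.10, 95% interval 0.03 to 0.49, unadjusted p = 0.0338, edgeR adjusted p = 0.166). Without Em+ replicate 1 it was 0.37 (edgeR adjusted p = 0.00284), and no other fit called it. It also shares 32.5% of its words with other genes, A730017L22Rik and Gm14048 among them. Of the Psmd11 reads in the Ensembl table, 77.9% to 81.9% lay at those 2 overlapping copies, and with them added the change was 0.20 (edgeR adjusted p = 0.228).

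Assembly chaperones build the rings and the cap base without staying in the finished complex. The 7 genes had changes from -0.28 to 0.00, a median of -0.08, and no call. The core chaperones Psmg1, Psmg3 and Psmg4 had both Em+ libraries below both Em- libraries (42.9% of the class, against 29.7% of all genes). Psmg3 was lowest, with 18.1 and 15.7 CPM in Em+ and 21.1 and 19.9 in Em-, a change of -0.28 (SE 0.11, edgeR adjusted p = 0.177). Psmg1, the most abundant at a mean of 34.4 FPKM, had 69.3 and 63.2 CPM in Em+ and 73.8 and 74.6 in Em-, a change of -0.16 (edgeR adjusted p = 0.243). The cap base chaperones overlapped between groups. Psmd5 had 108 and 99.4 CPM in Em+ and 105 and 102 in Em-, a change of 0.00, the highest of the class. Psmd9, the least abundant at a mean of 3.41 FPKM, had 19.6 and 15.9 CPM in Em+ and 18.2 and 19.4 in Em-, a change of -0.08 (edgeR adjusted p = 0.706).

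Activators open the barrel without the cap. The 5 activator and regulator genes had the median nearest to 0 of the classes, -0.01, with a range of -0.09 to 0.09. Psme4, a large nuclear activator known for its role in spermatogenesis, had 628 and 661 CPM in Em+ and 601 and 613 in Em-. Both Em+ libraries were above both Em- libraries in CPM, for a change of 0.09 (95% interval -0.08 to 0.26, edgeR adjusted p = 0.483). In FPKM they overlapped, with 47.8 and 42.9 in Em+ and 47.3 and 48.3 in Em-, and the estimate turned to -0.08 under library totals and in limma. Without Em+ replicate 1 it was 0.12 (edgeR adjusted p = 0.0136), and it was called in no other fit.

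Psme3, the nuclear ring activator, had 109 and 107 CPM in Em+ and 117 and 113 in Em-, a change of -0.09 (95% interval -0.23 to 0.06). Psme1 and Psme2 form the interferon-inducible activator. Psme1 had 19.0 and 18.3 CPM in Em+ and 17.8 and 19.3 in Em-, overlapping, with a change of 0.01 (95% interval -0.23 to 0.25). Psme2 had 1.07 and 1.15 FPKM in Em+ and 1.30 and 1.19 in Em-, just above the minimum, and its change was -0.01 (95% interval -0.54 to 0.53). Its near copy Psme2b held 694, 499, 768 and 900 reads in the Ensembl table, in the order Em+ replicates 1 and 2 and Em- replicates 1 and 2. With copies added, Psme2 was at -0.32 (SE 0.11, 95% interval -0.56 to -0.07, edgeR adjusted p = 0.144). Psmf1, a proteasome inhibitor, had 33.2 and 35.0 CPM in Em+ and 35.5 and 34.0 in Em-, overlapping, with a change of -0.03 (95% interval -0.21 to 0.16).

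A list of 43 other genes of the pathway, of which 40 were tested, had no call either. Of these, 3 were higher at an unadjusted p under 0.05, beside 14.5% of all genes, and 6 lower, beside 10.7%. DESeq2 called 1 (2.5%, against 5.61% of all genes), the shuttle gene Ubqln2, and limma on log2(FPKM + 1) called 0 (against 2.43%). Changes of the 40 genes ran from -0.42 to 0.95, with a median of -0.04, and the median was -0.06 without Em+ replicate 1. Among the 9 cap-associated proteins AI314180, a proteasome adaptor, was highest at 0.32 (edgeR adjusted p = 0.132), with 67.9 and 84.5 CPM in Em+ and 61.0 in both Em- libraries. Txnl1, a thioredoxin-like protein on the cap, was lowest at -0.21 (edgeR adjusted p = 0.116), with 169 and 157 CPM in Em+ and 190 and 187 in Em-. Of the assembly and import factors, the maturation chaperone Pomp was at -0.26 (edgeR adjusted p = 0.145) and the nuclear import factor Akirin2 at 0.20 (edgeR adjusted p = 0.151). Pomp had 86.2 and 73.5 CPM in Em+ and 92.4 and 98.9 in Em-, and Akirin2 had 103 and 112 against 91.7 and 96.1.

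The transcription group includes Nfe2l1, which drives proteasome genes when activity is low. Nfe2l1 had 304 and 273 CPM in Em+ and 302 and 298 in Em-, overlapping, with a change of -0.05 (edgeR adjusted p = 0.675), and is named here after its values were seen. Maff, a small Maf partner, was lowest at -0.42 (SE 0.11, edgeR adjusted p = 0.0728), with 24.4 and 20.3 CPM in Em+ and 30.9 and 29.0 in Em-. Maff was called under library totals (-0.57, edgeR adjusted p = 0.0169), without the filter (-0.48, 0.0448) and with the replicate block (-0.42, 0.0102). It was also called without Em+ replicate 1 (-0.56, edgeR adjusted p = 0.00102) and without Em+ replicate 2 (-0.30, 0.0387). Ngly1, which processes Nfe2l1, was highest at 0.16 (0.00 under library totals), with 16.1 and 17.2 CPM in Em+ and 14.6 and 15.1 in Em-. Of the ubiquitin genes and activating enzymes, the ubiquitin fusion gene Rps27a was lowest at -0.18, with 36.0 and 35.6 CPM in Em+ and 40.6 and 40.5 in Em-. The activating enzyme Uba6 was highest at 0.04 (-0.12 under library totals), with 137 and 132 CPM in Em+ and 129 and 133 in Em-, which overlap. All 6 tested genes of peptide loading and its regulators were at or below 0, with a median of -0.14. B2m, the light chain of the peptide-presenting complex, was lowest at -0.20, with 38.4 and 35.2 CPM in Em+ and 40.7 and 43.7 in Em-, but at 0.25 in the known-gene table. Tapbp, a peptide loading chaperone, was at 0.00, with 27.2 and 25.3 CPM in Em+ and 26.7 and 26.1 in Em-.

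The widest difference of the pathway list was in Ubqln2, a shuttle that carries ubiquitin-tagged proteins to the proteasome. It had 17.7 and 30.6 CPM in Em+ and 11.4 and 13.6 in Em-, 0.95 on the log2 scale (SE 0.24, 95% interval 0.37 to 1.52, edgeR adjusted p = 0.0728). Both Em+ libraries were higher, and Em+ replicate 2 lay farther from Em+ replicate 1 than the latter lay from the Em- libraries. DESeq2 called it (adjusted p = 0.00151), and so did edgeR when Em+ replicate 1 was left out (1.29, adjusted p = 3.55e-05) or Em+ replicate 2 (0.50, adjusted p = 0.0284). Without Em- replicate 1 it was 0.82 (edgeR adjusted p = 9.48e-04) and without Em- replicate 2 it was 1.08 (edgeR adjusted p = 3.04e-06). Rad23b, another shuttle, was lowest of its group at -0.24 (edgeR adjusted p = 0.165), with 407 and 343 CPM in Em+ and 446 and 438 in Em-.

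Promoters of 40 of the 48 genes were found in the RefSeq table of GRCm38.p6, as windows from 250 bases before to 50 after the gene start. A gene was counted if any of its windows held a match. The letters TGACNNNGC, searched on both strands, occurred in 6 of the 40 (15.0%) and in 14.0% of all 27025 genes. Those 6 genes were Psmb5, Psmb6, Psmc6, Psmd12, Psmd9 and Psme4. The related letters TGAGNNNGC occurred in 12 of the 40 (30.0%) and in 19.8% of all genes. A match is a description of these letters only.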

How the data were processed

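Gene levels of 2 Em+ and 2 Em- libraries were read from 4 deposited tables (RefSeq, known-gene, ENCODE and Ensembl models), each with raw counts and FPKM per transcript, per the file headers. The submitters' processing notes name Bowtie2 and mm10. Not given in the sources used here: the counting program, annotation release, use of strand and treatment of reads matching several places. The deposited RefSeq counts and FPKM, which the authors computed per transcript, were summed per symbol.

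The count column of Em- replicate 1 is empty in the RefSeq and Ensembl tables, so its counts were computed from FPKM, transcript length and library total. The same computation gave the deposited count exactly for 99.95% to 99.97% of 24538 RefSeq transcripts in the other libraries, with largest differences of 35, 161 and 146 reads. In Em- replicate 1 it was checked on transcripts whose RefSeq and known-gene counts were equal in the other libraries. It matched the known-gene count exactly for 99.48% of these 13036 transcripts, with a largest difference of 6 reads. Of the 35 proteasome transcripts among them 97.14% matched exactly, with a largest difference of 3 reads.

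Testing covered genes whose FPKM averaged at least 1 over the 4 libraries and used edgeR 4.0.16 (quasi-likelihood, TMM scaling, two-sided, Benjamini-Hochberg over 12050 genes) in R 4.3.3, and CPM are TMM-scaled counts. The procedure was tested on simulated data. It called 13 of 50 genes changed 1.25-fold in the right direction, 46 of 50 at 1.5-fold and 50 of 50 at 2-fold, with 6 false calls. Changes near 1.25-fold would therefore mostly go uncalled. Whether these counts hold for the 4 libraries was not tested. In them Ubqln2, at a log2 fold change of 0.95, went uncalled (edgeR adjusted p = 0.0728). Library totals, computed back from deposited counts, transcript lengths and FPKM, were 35907640 to 37905679 reads. Alternatives were other scalings, filters, tools (DESeq2 1.42.0, limma 3.58.1), tables, a replicate block and leaving out each library. Near copies were found with blastn 2.17.0 in GENCODE M21 transcripts.

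Members and lists were chosen with earlier results of these data known. Values in every library are given for the members of highest and lowest FPKM and log2 fold change in each class, all tissue-specific subunits, activators and Psmf1, and members under the filter. For the pathway list they are given for the extremes of its groups. Other members named were chosen after their values were seen. Of the other markers, fibroblast or feeder genes summed to 41.9 to 43.9 CPM in Em+ and 30.4 to 31.3 in Em-, with 2 of 6 not detected. Among them Thy1 was called higher in Em+ (log2 fold change 0.89, edgeR adjusted p = 0.00386). It had 20.5 and 19.5 CPM in Em+ and 10.5 and 11.2 in Em-. Pdgfrb overlapped between groups, while Col1a1 and Col1a2, under the minimum for testing, were higher in both Em+ libraries. Endoderm genes summed to 15.3 to 15.9 CPM in Em+ and 14.0 to 15.0 in Em-, with no call.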

Additional observations from a re-analysis of the deposited data

How the results depend on the processing

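Of 801 values of single proteasome genes under 18 alternatives, 773 kept their side of the threshold, 28 passed it in the direction of the reported value, and none that was called changed direction. The count of proteasome genes called, 0 as reported, was 1 with library totals, 1 without the filter and 1 with the replicate block, and 0 to 22 when a library was left out, with 22 without Em+ replicate 1. Their median of -0.09 was -0.24 with library totals, -0.24 and -0.25 in limma on log2(FPKM + 1) and log2(FPKM + 0.1), -0.15 without the filter, -0.05 at a minimum of 5 FPKM, -0.13 in the Ensembl and ENCODE tables, and -0.17 to -0.02 when a library was left out. Under totals and limma the median of all genes moved to -0.16, -0.14 and -0.16, and without the filter to 0.03. The pathway list had 2 calls with totals, 1 in DESeq2, 2 without the filter, 3 with the block and 1 to 19 when a library was left out. Genes called over the whole table, 559 as reported, were 293 and 269 in limma with a pseudocount of 1 and 0.1, 1178 without the filter, 171 at a minimum of 5 FPKM and 490 to 4992 when a library was left out (4992 without Em+ replicate 1, 1968 without Em+ replicate 2). As shares of all genes tested, calls were 5.2% with totals, 5.61% in DESeq2, 5.95% without the filter and 12.9% with the block. The counts of the proteasome genes and the pathway list in those fits stand beside these shares. The replicate block gave 1552 calls, while same-numbered libraries deviated together only weakly (r = 0.056 over 9794 genes, 2 pairs). With 2 libraries per group the crossed pairs give the same value with the sign turned (r = -0.056). Such a value cannot tell whether same-numbered libraries shared a culture or sort. The cause of the changes across alternatives was not tested. The ENCODE table, leaving out Rn45s and adding near copies were chosen after seeing the data, and each gave 0 calls among the proteasome genes. Psmb5, Psmb8 and Psmb11, with at most 13 reads in any library, are too thinly counted for a test, and for Psmb5 the part of its near copies was not tested.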
